A study of Bos taurus and Bos grunniens and Bubalus bubalis with 15 samples.

Results

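Lecithin-cholesterol acyltransferase (LCAT) and angiotensinogen (AGT) are plasma proteins that are usually made by the liver, and both were read here in skeletal muscle. Every probe set whose platform annotation gives the symbol LCAT or AGT was taken, which found 4 probe sets for 2 genes, of 13292 probe sets with 1 symbol for 9155 genes. LCAT had 3 probe sets, which are named here by the endings of their identifiers as S1_at, A1_at and S1_a_at. AGT had 1. The genes were selected on their measured intensity in buffalo, which was high relative to cattle and yak, so their own differences between buffalo and the other animals are given below as values without a test. Their differences between yak and cattle and among the cattle groups were not the basis of the choice, and these are tested. Cattle and yak values were the reference of that choice, so the yak tests are not independent of it.

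The muscle was the longissimus dorsi, which runs along the spine, taken from 15 animals slaughtered at 36 months of age and read on 1 bovine array each. There were 5 groups of 3 labelled biological replicates. Intact males, castrated males and females were Qinchuan cattle, a Chinese beef breed, born within a month of each other, alike in genetic background and reared under shared conditions. The other groups were Qinghai yak (Bos grunniens) and Guangxi buffalo (Bubalus bubalis), with no sex or rearing stated in the labels. The study set out to compare the cattle groups among themselves and cattle with the other 2 species. Species, breed, place and rearing cannot be told apart between the groups. The probes hold cattle sequence, and how well yak and buffalo transcripts bind to them was not measured, so a difference between species is a difference in hybridisation signal.

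LCAT travels in the blood bound to high-density lipoprotein (HDL). There it moves a fatty acid from lecithin onto free cholesterol, with apolipoprotein A-I as its activator, and the cholesteryl ester formed fills the core of the particle. AGT belongs to the serpin family by sequence, but its known role is to be the precursor from which angiotensin I is cut. Angiotensin-converting enzyme turns this into angiotensin II, which acts mainly through the receptor AGTR1 on vessel tone, salt balance and growth of heart and vessel wall. The liver makes most of the AGT in plasma. Fat, brain, kidney and heart also express it, and glucocorticoids, thyroid hormone and inflammatory cytokines raise its transcription in liver.

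The values are linear intensities as deposited, and differences are log2 fold changes of intensity with 16 added, each with its standard error (SE). A probe set was tested if its mean lay above the 40th percentile (an intensity of 69.8), which left 14409. Adjusted p are Benjamini-Hochberg values from limma over those 14409 probe sets, and a gene is called to have risen or fallen where this is under 0.05. Rose and fell compare groups, as no animal was followed over time. On the log2 scale the array medians spanned 6.71 to 6.81. All 15 skeletal muscle markers with a probe set (of 18 listed) were bright enough to test, and their summed intensity lay between 151664 and 194886 on every array. It was 157448 to 169073 in buffalo and 167637 to 180099 in yak. In cattle it was 182870 to 194886, apart from intact male 1 at 151664. In buffalo against cattle 3 of the 15 were called higher and 7 lower, where 23% and 28.4% of all probe sets were. The part of this in the LCAT and AGT differences was not tested. Intact male 1 stood apart, with 341 probe sets more than 1 log2 unit above all 14 other arrays, against 17 on buffalo 3 and 0 to 11 on each of the remaining 13. These are bulk samples, so fewer cells of a type and less RNA per cell cannot be told apart.

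**Figure D1:**
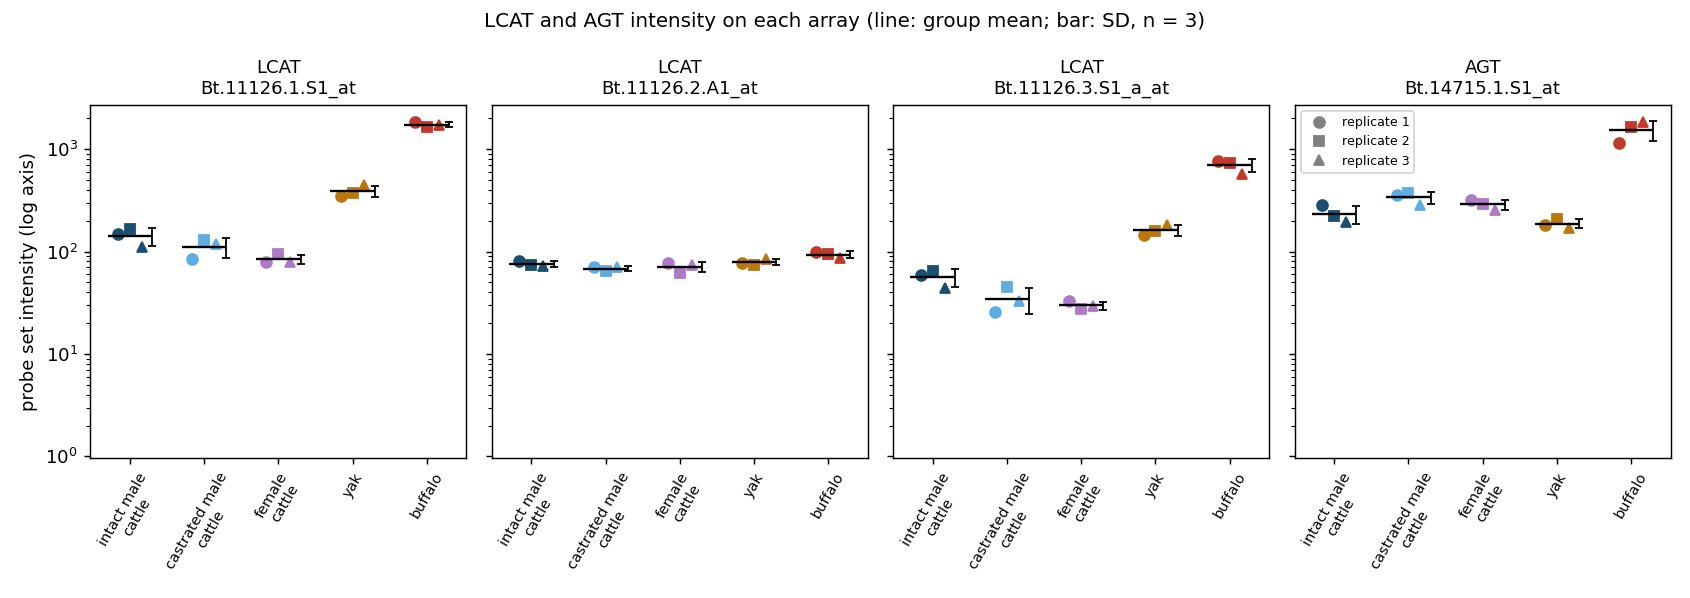
Intensity of each LCAT and AGT probe set on every array, on a log axis, by group. Points are single arrays, lines are group means and bars are SDs (n = 3). On S1_at and S1_a_at the yak and buffalo arrays lie above all cattle arrays in turn. On the AGT probe set only the 3 buffalo arrays stand apart.

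LCAT was brightest in buffalo, intermediate in yak and dim in cattle. On its brightest probe set, S1_at, the 3 buffalo arrays read 1848, 1651 and 1714. The 3 yak arrays read 349, 373 and 447. Intact males read 147, 166 and 112, castrated males 83.9, 129 and 119, and females 78.5, 94.6 and 79.3. The lowest buffalo array thus lay far above the highest yak array, and the lowest yak array above the highest of 9 cattle arrays. Buffalo averaged 1738 ± 100.3 (SD, n = 3) and cattle 112 ± 31.3 (SD, n = 9), a ratio of means of 15.5. As a log2 fold change this was 3.81 (SE 0.13), the highest value among the 14409 probe sets tested, which ran from -4.73 to 3.81. Against yak the buffalo difference was 2.12 (SE 0.16), a ratio of means of 4.46, and 61 probe sets had a higher one. In that comparison 26.7% of all probe sets were higher in buffalo without overlap, and against cattle 13.8% were. The buffalo arrays also lay close together on S1_at, with a coefficient of variation of 5.77%, against 10.8% to 21.4% in the other 4 groups. On S1_a_at they did not stand out in this way, at 14.6% against 9.04% in females to 28.0% in castrated males.

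The second responsive LCAT probe set, S1_a_at, gave the same order of species. It read 766, 735 and 578 in buffalo and 146, 157 and 184 in yak. Cattle lay between 25.7 and 65.2, with a mean of 40.1, which is below the brightness limit, so this probe set could be tested because of its yak and buffalo values. Buffalo minus cattle was 3.69 (SE 0.13) and 1 probe set had a higher value, which was the other LCAT probe set. Over the 15 arrays the log2 values of these 2 probe sets had a Pearson correlation of 0.996, and over the 9 cattle arrays 0.895. Both read the same RNA extracts, so this describes how well the probe sets follow each other and says nothing about animals.

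The remaining LCAT probe set did not follow them in size. A1_at read 86.6 to 99.8 in buffalo, 73.5 to 84.9 in yak and 62.2 to 81.7 in cattle. The buffalo arrays again lay highest, but buffalo minus cattle was only 0.32 (SE 0.07). Its correlation with the brightest probe set was 0.83 over the 15 arrays and 0.13 over the 9 cattle arrays. Which part of the transcript each probe set reads was not known here, so the size of the LCAT difference rests on 2 of its 3 probe sets.

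**Figure D2:**
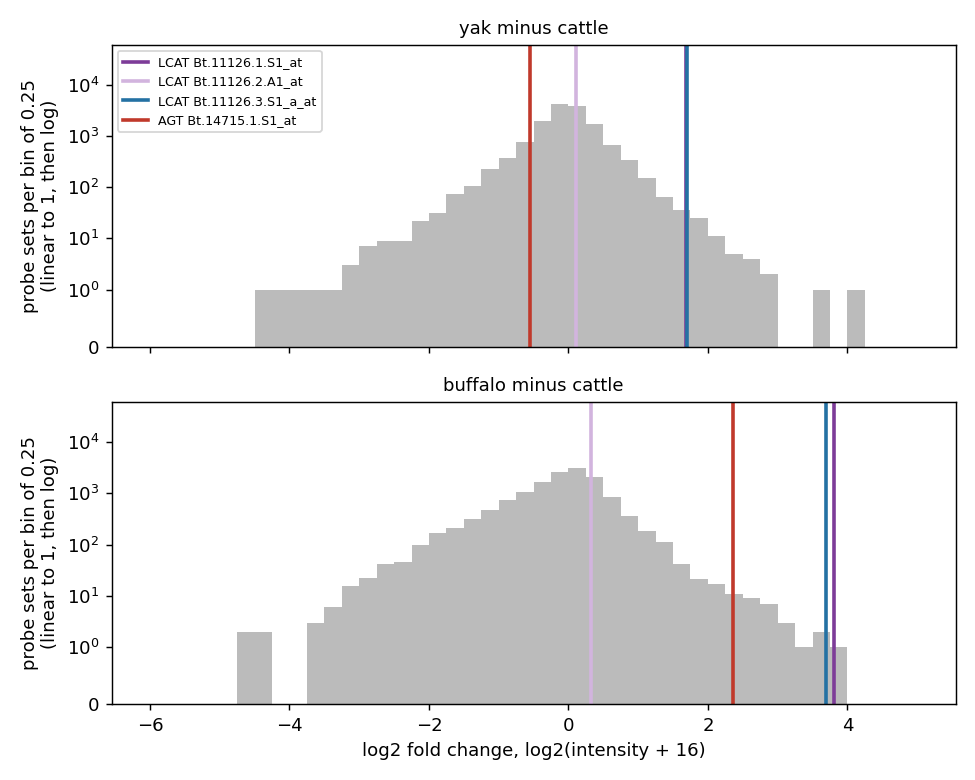
Histograms of the log2 fold change of 14409 probe sets for yak minus cattle (above) and buffalo minus cattle (below), in bins of 0.25 on a count axis that is linear up to 1 and logarithmic beyond. Vertical lines mark the 4 LCAT and AGT probe sets. In buffalo 2 LCAT lines stand at the right edge (3.69 and 3.81) and the AGT line at 2.36, while in yak the same LCAT lines lie at 1.69 and 1.70 and AGT at -0.55.

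In yak, LCAT rose on its brightest probe set. Yak averaged 390 ± 51.3 (SD, n = 3) on S1_at, a ratio of means to cattle of 3.47. The log2 fold change was 1.69 (SE 0.13, limma adjusted p = 2.61e-06), and 54 probe sets had a higher one. An exact two-sided permutation test of 3 yak against 9 cattle arrays gave p = 0.00909, the smallest that this design allows. S1_a_at averaged 162 ± 19.2 in yak, 1.70 (SE 0.13) above cattle. As it passed the brightness limit through its high groups, this is given as a value, and it reads the same RNA extracts. In the fit with no brightness limit its limma adjusted p was 1.27e-06, where 10.3% of 24016 probe sets were called higher. A1_at was not called (0.11, SE 0.07, limma adjusted p = 0.246). Of all probe sets 29.1% were called in yak against cattle, 13.2% as higher, and 8.83% were higher without overlap. The yak call on S1_at held in all 21 alternatives, with log2 fold changes of 1.38 to 1.85. Yak arrays also differed in the actin control probe sets, whose 3′ over 5′ signal was 1.49 to 1.93 against 1.17 to 1.48 in cattle. For the GAPDH control the yak ratio was 1.20 to 1.26, within the intact male range of 1.13 to 1.34. The highest castrated male had a GAPDH ratio of 1.19 and the highest female 1.20. Whether the actin difference reflects RNA quality, and its part in the result, was not tested.

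Among the cattle, LCAT on both responsive probe sets averaged highest in intact males and lowest in females, and neighbouring groups overlapped. On S1_at intact males averaged 142 ± 27.6, castrated males 110.6 ± 23.7 and females 84.1 ± 9.12 (SD, n = 3 each). All 3 females lay below all 3 intact males, but the difference was not called (-0.64, SE 0.17, limma adjusted p = 0.0582). On S1_a_at intact males read 59.1, 65.2 and 44.1 and females 32.6, 27.2 and 29.6, so that the groups did not overlap, and the log2 fold change was -0.65 (SE 0.15). This probe set lay below the brightness limit in cattle and was tested because of yak and buffalo, so its adjusted p of 0.0417 does not support the difference. With no brightness limit its limma adjusted p was 0.0483, where 2.25% of probe sets were called lower. Of the 14409 probe sets 5.5% were called in this comparison, 2.12% as higher and 3.37% as lower, and 17.4% were lower in females without overlap. With the limit, its adjusted p was over 0.05 without intact male 1 (0.0955), intact male 2 (0.107), female 1 (0.0850), female 2 (0.128) or female 3 (0.120). Without intact male 3, S1_at passed (-0.79, adjusted p = 0.0202). On A1_at castrated males averaged lowest at 68.2 ± 3.53, with females at 71.0 ± 7.75 and intact males at 75.9 ± 5.07. There the castrated males lay below the intact males without overlap, as did 13.5% of all probe sets, and no difference was called. Fibroblast markers moved with this comparison, with a summed intensity of 20247 to 29018 in intact males and 7658 to 10244 in females over 9 of 9 genes, as did macrophage markers, at 2941 to 18137 and 518 to 1250 over 6 of 8. Their part in the result was not tested.

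Castration gave no called LCAT difference. Castrated minus intact males was -0.32 (SE 0.17, limma adjusted p = 0.320) on S1_at and -0.53 (SE 0.15) on S1_a_at, with an adjusted p of 0.130 when no brightness limit was set. In the comparison with the limit 1.46% of all probe sets were called, 0.625% as higher and 0.84% as lower. Females and castrated males differed by -0.32 (SE 0.17, adjusted p = 0.709) on S1_at and by -0.12 (SE 0.15) on S1_a_at, and 0.0208% of probe sets were called between them.

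AGT was brightest in buffalo as well, but here yak lay lowest. The 3 buffalo arrays read 1153, 1658 and 1821. Yak read 182, 209 and 171. Intact males read 285, 223 and 193, castrated males 354, 376 and 287, and females 320, 290 and 254. All buffalo arrays lay above all 12 others, and every other pair of neighbouring groups in the order yak, intact male, female, castrated male overlapped. Buffalo averaged 1544 ± 349 (SD, n = 3) and cattle 287 ± 58.8 (SD, n = 9), a ratio of means of 5.38 and a log2 fold change of 2.36 (SE 0.15), with 29 probe sets further out. Against yak the ratio was 8.23 and the log2 fold change 2.92 (SE 0.19), with 15 probe sets further out. The buffalo arrays spread by 22.6% of their mean.

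In yak, AGT fell by 0.55 on the log2 scale relative to cattle (SE 0.15, limma adjusted p = 0.0156). Yak averaged 188 ± 19.4, and the exact two-sided permutation test gave p = 0.0182. One intact male lay within the yak range, so the groups overlapped. Of all probe sets 15.9% were called lower in yak, and 10.4% were lower without overlap. The call ended without yak 1 (-0.53, adjusted p = 0.0694) or yak 3 (-0.50, adjusted p = 0.0687). In yak LCAT was thus called higher on S1_at and AGT lower, the latter in a call that rests on single arrays. Both genes were chosen for high buffalo values, so their shared height in buffalo is no result.

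Among the cattle groups AGT gave no called difference, and in a test for any difference among the 3 groups its limma adjusted p was 0.192, where 1.96% of all probe sets were called. For LCAT that test gave 0.124 on S1_at. Castrated males averaged 339 ± 46.4 and intact males 234 ± 47.3, and the lowest castrated male (287.0) lay just above the highest intact male (285.4). This difference of 0.52 (SE 0.17) had an unadjusted p of 0.0139 and a limma adjusted p of 0.147, and 11.3% of all probe sets were higher in castrated males without overlap. Females, at 288 ± 33.03, differed from intact males by 0.30 (SE 0.17, adjusted p = 0.287) and from castrated males by -0.22 (SE 0.17, adjusted p = 0.805). Adipocyte markers, from cells that also express AGT, summed to overlapping ranges, with intact males at 8840 to 12955, castrated males at 8784 to 10430 and females at 9218 to 13536.

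**Figure D3:**
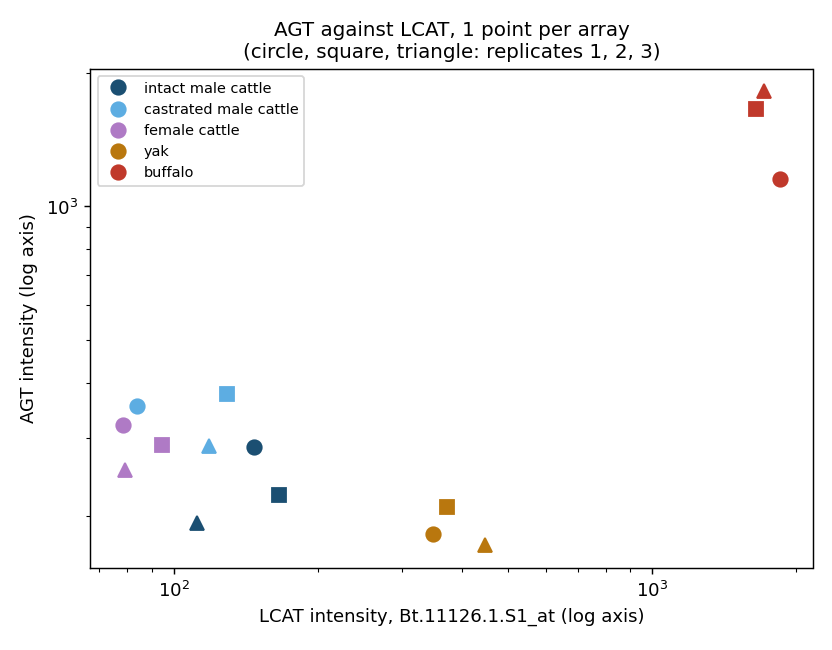
AGT intensity against LCAT intensity (S1_at), both on log axes, with 1 point per array coloured by group and shaped by replicate. The 3 buffalo arrays form a separate group at the upper right, and buffalo 1 has the highest LCAT (1848) with the lowest AGT (1153) of the 3. The yak arrays lie to the right of all cattle arrays and overlap the lowest of them in AGT.

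Within buffalo the genes did not rank the animals alike. Buffalo 1 had the highest LCAT intensity on S1_at and on S1_a_at, and the lowest AGT intensity, 0.39 below the buffalo mean on the log2 scale. Buffalo 3 had the highest AGT, 0.26 above that mean, and the lowest LCAT on S1_a_at, 0.25 below it. With 3 animals these orders carry no test.

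The genes most like LCAT and AGT over the arrays were sought by the Pearson correlation of log2 values over all 15 arrays, among tested probe sets with 1 symbol. The arrays fall into separate groups, so this measure describes a shared order of groups and no relation within them. For LCAT the 5 nearest were ACBD3 (0.961), MT3 (0.956), PAG10 (0.955), PATL1 (0.954) and THEM4 (0.954). All of these averaged highest in buffalo and next highest in yak. THEM4, an acyl-CoA thioesterase, came closest in size, at 1081 ± 351 in buffalo, 143 ± 25.2 in yak and 68.1 to 90.5 as cattle group means. MT3, a metallothionein, averaged 609 ± 27.7 in buffalo and 251 ± 2.59 in yak. Other probe sets of ACBD3 and PATL1 did not share the pattern, with lowest correlations of 0.42 and -0.54. AGT ranked at 604 (0.743) in that list. For AGT the nearest were CNOT9 (0.961), AGO3 (0.959), TLE1 (0.959), CDK18 (0.956) and TMEM168 (0.954). Each averaged highest in buffalo and lowest in yak. TLE1, a transcriptional co-repressor, averaged 683 ± 160 in buffalo, 209 ± 10.1 in yak and 215 to 251 in the cattle groups. Other probe sets of CNOT9 and TLE1 again had correlations down to 0.05 and 0.13, and LCAT ranked at 678.

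The measured neighbours of both genes on the chromosome were not called in buffalo. In the RefSeq gene table (assembly ARS-UCD2.0, used for gene order only) LCAT lies between PSMB10, an immunoproteasome subunit, and SLC12A4, a potassium-chloride cotransporter. Buffalo minus cattle was 0.14 (adjusted p = 0.199) for PSMB10, 0.06 (0.692) for SLC12A4 and -0.17 (0.505) for the kinase PSKH1 beyond PSMB10, all from limma. PSMB10 fell in yak (-0.39, adjusted p = 0.00592). DPEP3, beyond SLC12A4, has no probe set. Of the genes next to AGT only COG2, part of a Golgi tethering complex, was read, and TFAM and ZNF239 have no probe set. No gene beyond COG2 was listed in the gene order used. COG2 had the group order of AGT on a smaller scale, at 217 ± 16.04 in buffalo, 169 ± 3.40 in yak and 185 to 188 as cattle group means. Neither its buffalo (0.20, adjusted p = 0.0556) nor its yak difference (-0.13, adjusted p = 0.262) was called.

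The other genes of HDL and cholesterol transport changed in both directions in buffalo. Of 34 genes listed 27 had a probe set and 23 were tested, and in buffalo against cattle 6 rose, 7 fell and 10 were not called, with a median log2 fold change of -0.23 against -0.03 over all probe sets. Over all probe sets 51.4% were called in this comparison, 23% as higher and 28.4% as lower, so the share called in the list (13 of 23) was near the background. LIPC and SOAT2, counted among the rises, were bright enough to test through buffalo alone. With no brightness limit 8 of 27 rose and 7 fell, against 29.6% and 20.1% of 24016 probe sets. The list and the LCAT gene were chosen with earlier results of these data known. Each gene is given by its brightest probe set.

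Of the enzymes and carriers that handle cholesteryl ester inside cells, NCEH1, which splits the ester at neutral pH, rose most in buffalo, to 975 to 1170 per array against 110.5 to 237 in cattle (2.59, SE 0.19, limma adjusted p = 1.67e-07). NPC1, which exports cholesterol from lysosomes, rose by 1.85 (SE 0.29, adjusted p = 0.000174). SOAT2, which forms the ester inside cells, read 91.0 to 118 in buffalo and 57.6 to 89.1 in cattle. LIPA, the lysosomal acid lipase, fell by 2.43 (SE 0.49, adjusted p = 0.000988). The 3 buffalo arrays read 41.9 to 58.4 for it and cattle 113 to 4963, the highest being intact male 1. NPC2, the soluble partner of NPC1, fell by 0.85 (SE 0.24, adjusted p = 0.0104), but not with castrated males and females alone as the reference (-0.40, adjusted p = 0.218).

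Among the plasma and receptor side of the pathway, APOA1, the activator of LCAT, rose in buffalo (1.04, SE 0.34, limma adjusted p = 0.0204), but this rests on 1 animal. Its arrays read 123, 211 and 722, and without buffalo 3 the difference was 0.36 (adjusted p = 0.139). LPL, the lipase of the capillary wall that muscle itself makes, rose by 1.34 (SE 0.32, adjusted p = 0.00316). LIPC, hepatic lipase, read 83.4 to 125 in buffalo and 61.7 to 75.9 in cattle. SCARB1, the HDL receptor, fell by 0.62 (SE 0.15, adjusted p = 0.00452), though not against castrated males and females alone (-0.38, adjusted p = 0.0732). CLU, or apolipoprotein J, fell by 1.81 (SE 0.29, adjusted p = 0.000202) and PON2, a paraoxonase, fell by 1.01 (SE 0.14, adjusted p = 6.97e-05). PLA2G7, the lipoprotein-associated phospholipase A2, fell by 0.50 (SE 0.15, adjusted p = 0.0117), but without buffalo 1 the value was -0.39 (adjusted p = 0.0753). NR1H3, a sterol-sensing nuclear receptor, fell by 0.31 (SE 0.09, adjusted p = 0.0149), but the call ended without buffalo 3 (-0.25, adjusted p = 0.0896) and after quantile normalisation (-0.22, 0.0708).

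Among the 10 genes of the list that were not called, PLA2G15, the lysosomal paralog of LCAT, averaged 109 ± 4.27 in buffalo, 107 ± 7.46 in yak and 88.8 to 118 in the cattle groups (0.13, SE 0.09, limma adjusted p = 0.230 for buffalo against cattle). APOE, a ligand of lipoprotein receptors, gave -0.80 (SE 0.46, adjusted p = 0.163) and PLTP, the phospholipid transfer protein, -0.77 (SE 0.34, adjusted p = 0.0749). APOA2, APOC2, APOC3 and PON1 were too dim to test. ABCA1, ABCG1, CETP, LIPG, LRP1 and APOC1, which include efflux and transfer steps on either side of LCAT, were not analysed here.

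In yak, where LCAT rose less, 2 of the 23 genes rose and 4 fell, with a median of -0.11 against -0.02 over all probe sets. The 6 of 23 called lie near the 29.1% over all probe sets. PLA2G7 rose (0.75, SE 0.15, limma adjusted p = 0.00225), as did NCEH1 (0.59, SE 0.19, adjusted p = 0.0289). The NCEH1 call ended without yak 1 (0.49, adjusted p = 0.151) or yak 2 (0.57, adjusted p = 0.102), and with castrated males and females alone as the reference (0.41, adjusted p = 0.157). LPL fell by 1.56 (SE 0.32, adjusted p = 0.00284), SCARB1 by 0.88 (SE 0.15, adjusted p = 0.00118) and PON2 by 0.66 (SE 0.14, adjusted p = 0.00425). LIPA fell by 1.40 (SE 0.49, adjusted p = 0.0450), a call that ended in 14 alternatives. With castrated males and females alone as the reference it was -0.49 (adjusted p = 0.537). Without intact male 1 or intact male 3 the count of fallen genes was 7. Both species were set against the same cattle arrays, so the contrasts are not independent of each other.

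**Figure D4:**
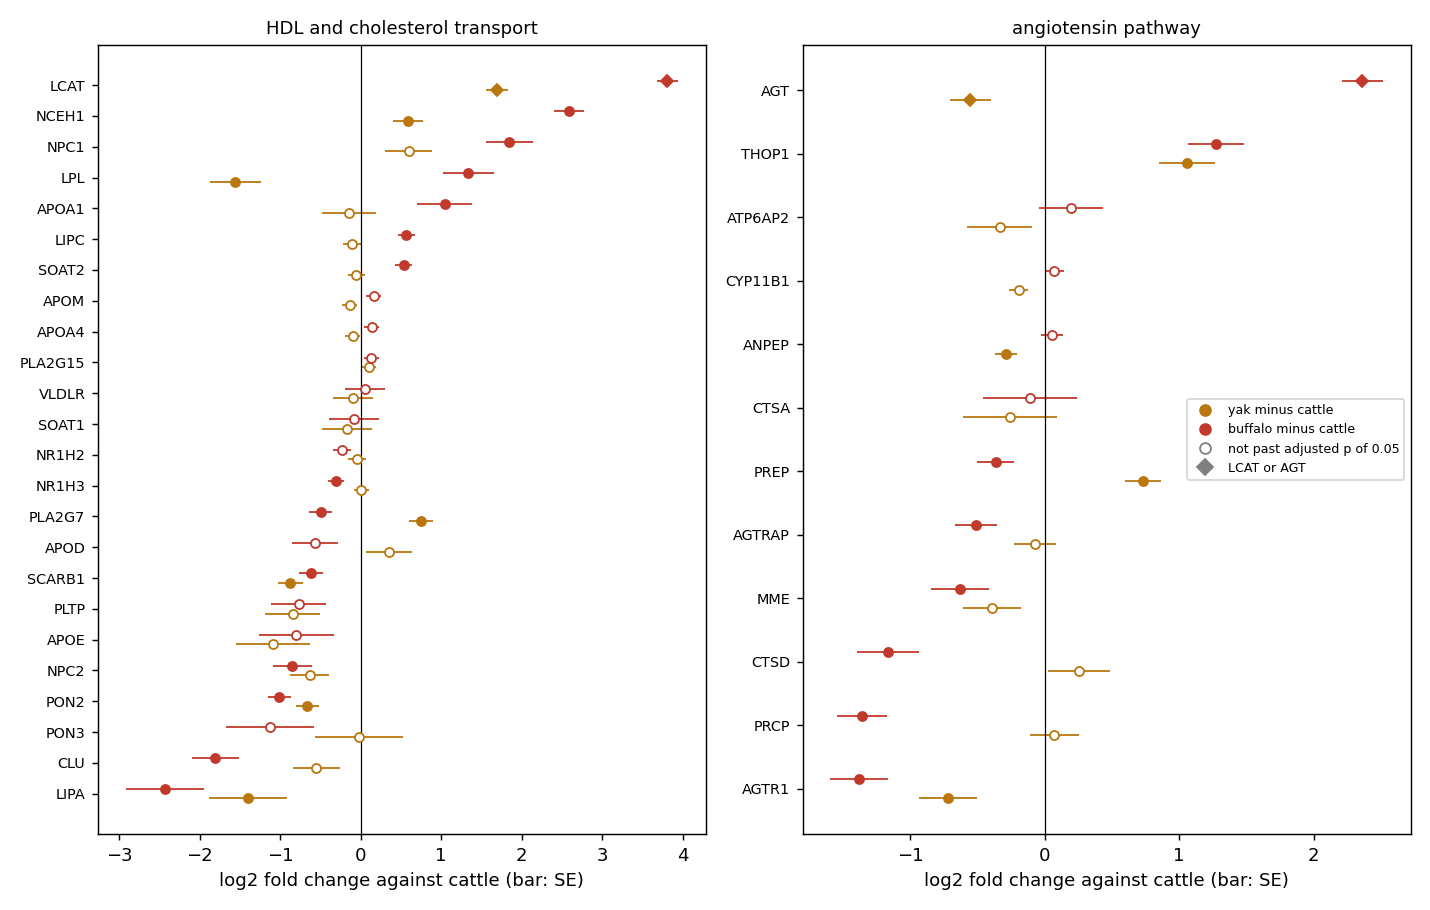
Log2 fold change against cattle of each tested gene of HDL and cholesterol transport (left) and of the angiotensin pathway (right), with SE bars, for yak and buffalo. Filled circles passed an adjusted p of 0.05 and open ones did not. Diamonds at the top are LCAT and AGT, whose buffalo values carry no test. LCAT (3.81) and AGT (2.36) lie furthest right in buffalo in their panels, but they were chosen for high buffalo values, so this order is no result. Of the 11 angiotensin genes 6 fell in buffalo.

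The angiotensin pathway genes around AGT mostly fell or were not called in buffalo. Of 27 listed genes 14 had a probe set and 11 were tested. In buffalo 1 rose, 6 fell and 4 were not called, with a median of -0.37, where 23% of all probe sets rose and 28.4% fell. Without buffalo 2 the count of fallen genes was 3, near that background. AGTR1, the main receptor of angiotensin II, fell by 1.38 (SE 0.22, limma adjusted p = 0.000148). Its intensity was 77.4 to 88.1 in buffalo, 118 to 185 in yak and 126 to 340 in cattle. AGTRAP, a protein that binds AGTR1 and dampens its signal, fell by 0.51 (SE 0.16, adjusted p = 0.0145), but the call ended without buffalo 2 (-0.39, adjusted p = 0.0982) and against castrated males and females alone (-0.37, 0.0822).

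Of the peptidases, THOP1, which converts angiotensin I to a shorter peptide, rose in buffalo by 1.27 (SE 0.21, limma adjusted p = 0.000211). PRCP, which shortens angiotensin II, fell by 1.36 (SE 0.18, adjusted p = 4.52e-05), to 61.4 to 64.8 against 104 to 272 in cattle. CTSD, a lysosomal protease able to cut AGT, fell by 1.16 (SE 0.23, adjusted p = 0.000893). MME, or neprilysin, fell by 0.63 (SE 0.22, adjusted p = 0.0267), but the call ended without buffalo 1 (-0.61, adjusted p = 0.0759), buffalo 2 (-0.64, 0.0699) or buffalo 3 (-0.64, 0.0694). PREP fell by 0.37 (SE 0.14, adjusted p = 0.0371), a call lost in 8 alternatives. After quantile normalisation it was -0.15 (adjusted p = 0.389) and with the replicate number as a block the adjusted p was 0.0567. The others were those without buffalo 1 (adjusted p = 0.129), buffalo 2 (0.147), intact male 3 (0.0548), castrated male 1 (0.0538), female 1 (0.0549) and female 2 (0.0505). ATP6AP2, an accessory protein of the vacuolar proton pump, was not called (0.19, SE 0.24, adjusted p = 0.518).

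ACE, which forms angiotensin II, was not analysed here, nor were LNPEP and MAS1. AGTR2, the other angiotensin II receptor, and ENPEP, which trims angiotensin II, were too dim to test, with group means of 30.6 to 41.3 and 14.7 to 39.0. In yak, where AGT fell, THOP1 rose (1.06, SE 0.21, limma adjusted p = 0.00236), as did PREP (0.73, SE 0.14, adjusted p = 0.00169). AGTR1 fell by 0.72 (SE 0.22, adjusted p = 0.0237), but not without yak 1 (-0.64, adjusted p = 0.113) or yak 3 (-0.61, adjusted p = 0.104). ANPEP, an aminopeptidase, fell by 0.28 (SE 0.08, adjusted p = 0.0191), but not without yak 1 (adjusted p = 0.0781) or yak 2 (0.111) or against castrated males and females alone (0.0751), so that both lower calls of the list ended without yak 1.

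Genes of the glucocorticoid and cytokine response, signals that act on the AGT promoter in liver, had 13 of 18 members tested. In buffalo 2 rose, 2 fell and 9 were not called, a smaller share than the 51.4% called over all probe sets, and without buffalo 3 both rises ended and 1 gene fell. FKBP5, a glucocorticoid target, rose by 0.40 (SE 0.13, limma adjusted p = 0.0225) and SOCS3, a target of cytokine signalling, by 0.30 (SE 0.09, adjusted p = 0.0114). Without buffalo 3 these were 0.32 (adjusted p = 0.115) and 0.25 (0.0690). The FKBP5 call also ended without buffalo 1 (adjusted p = 0.0731) and that of SOCS3 without buffalo 2 (0.0634). DUSP1, a phosphatase induced by stress and glucocorticoids, fell by 1.06 (SE 0.28, adjusted p = 0.00626), and THRA, a thyroid hormone receptor, fell by 0.63 (SE 0.20, adjusted p = 0.0164), but by 0.60 without buffalo 3 (adjusted p = 0.0617) and by 0.46 without buffalo 2 (adjusted p = 0.112). After quantile normalisation THRA was at -0.39 (adjusted p = 0.137). The glucocorticoid receptor NR3C1 was not called (0.27, SE 0.17, adjusted p = 0.204). In yak 3 of the 13 rose and 1 fell, against 13.2% and 15.9% of all probe sets. CEBPD, a transcription factor of the acute phase, rose by 1.92 (SE 0.35, adjusted p = 0.00152), CEBPB by 0.88 (SE 0.14, adjusted p = 0.000689) and ZBTB16 by 0.76 (SE 0.27, adjusted p = 0.0463), the last in a call that ended in 14 alternatives. With castrated males and females alone as the reference ZBTB16 was at 0.42 (adjusted p = 0.310). STAT3, which carries the interleukin-6 signal, fell by 0.88 (SE 0.17, adjusted p = 0.00246).

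Among the cattle, 1 of the 23 HDL and cholesterol genes rose and 3 fell in females relative to intact males by limma, where 2.12% and 3.37% of all probe sets were called. An unadjusted p under 0.05 was reached by 4 and 8 of them, and by 3985 of all 14409 probe sets in either direction. VLDLR, a receptor for triglyceride-rich particles in muscle, rose by 1.70 (SE 0.33, adjusted p = 0.0279), and LIPA (-3.02, SE 0.71, adjusted p = 0.0434), NPC2 (-1.50, SE 0.36, adjusted p = 0.0465) and PON2 (-0.67, SE 0.16, adjusted p = 0.0465) fell. Each of these 4 calls ended in 4 to 8 alternatives. Castrated against intact males gave 0 calls in this list, with 4 higher and 7 lower at an unadjusted p under 0.05. In that comparison 2952 of all 14409 probe sets reached this, in either direction. The 11 angiotensin pathway genes gave 0 calls in both comparisons, with 1 higher and 2 lower (females) and 1 higher (castrated males) at an unadjusted p under 0.05.

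**Figure D5:**
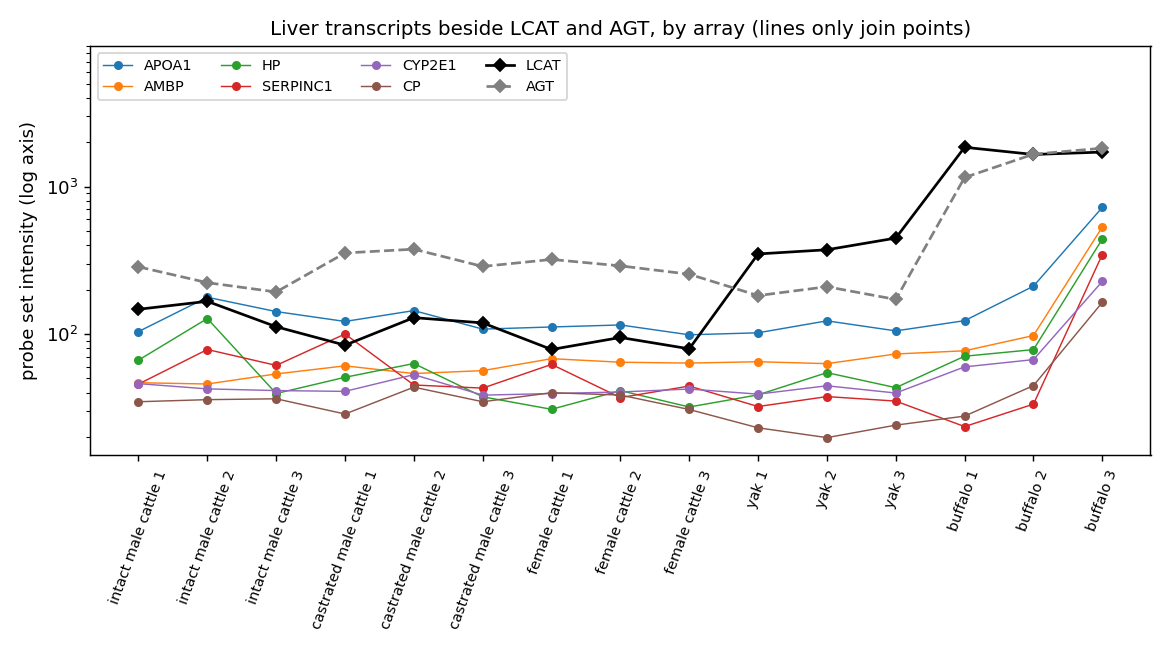
Intensity of 6 liver transcripts with LCAT (S1_at) and AGT on each array, on a log axis, with lines that only join points. APOA1, AMBP, HP, SERPINC1, CYP2E1 and CP are drawn as genes that stand out on buffalo 3. Other listed liver genes do not, and HPX, F9, TTR and SERPINA1 read lowest there of the 3 buffalo arrays. LCAT and AGT are high on all 3 buffalo arrays.

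Other transcripts of liver plasma proteins were also higher in buffalo, and a set of them stood out on 1 buffalo array. Of 39 listed plasma protein genes 37 had a probe set, 16 were tested and 21 were too dim, and none of the 37 read 0. With no brightness limit 23 of the 37 rose in buffalo and 2 fell, where 29.6% and 20.1% of 24016 probe sets did. With the limit 23% of all probe sets rose, so 29.6% may be too low a background for a list with 21 dim genes. Of the 16 above the limit 10 rose, 2 fell and 4 were not called, but F9 and AMBP passed it through buffalo alone. Without buffalo 3, 8 rose and 2 fell. ITIH3, which binds hyaluronan, rose by 0.79 (SE 0.07, limma adjusted p = 1.87e-06), with 307, 275 and 279 in buffalo and 145 to 175 in cattle. HPX, which binds heme, rose by 1.07 (SE 0.17, adjusted p = 0.000183). F9, a clotting factor, read 132 to 158 in buffalo and 46.4 to 68.4 in cattle. ITIH4, an acute phase protein, rose by 0.66 (SE 0.09, adjusted p = 5.85e-05). RBP4, the retinol carrier that fat cells make too, fell (-1.50, SE 0.45, adjusted p = 0.0126), but not without buffalo 1 (-1.10, adjusted p = 0.0889) or against castrated males and females alone (-1.19, 0.0518).

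On buffalo 3, AMBP read 532 against 76.9 and 97.5 on the other buffalo arrays. SERPINC1, or antithrombin, read 346 against 23.5 and 33.4, HP 441 against 70.6 and 78.3, CP 164 against 27.7 and 44.6, and CYP2E1, a hepatocyte enzyme that is not secreted, 227 against 59.8 and 67.0. Each of these 5 was more than 1 log2 unit above all 14 other arrays there. They were named because they stood out, and other listed liver genes did not share this. HPX read 209 on buffalo 3 against 348 and 324 on the other buffalo arrays, and F9 132 against 158 and 157. The summed intensity of the 37 plasma protein genes was 4339, 4320 and 6097 in buffalo, 3560 to 3595 in yak and 3381 to 4087 in cattle. Of 14 intracellular liver genes with a probe set, 10 were too dim to test, among them TAT, HPD, HNF4A and ASGR1, and the sum was 1014, 937 and 1144 in buffalo, 861 to 968 in yak and 749 to 922 in cattle. ALB has 9 probe sets that disagree. The brightest was not called in buffalo (-0.29, SE 0.14, limma adjusted p = 0.0902), while another, whose identifier ends in A1_a_at, read 36.4, 37.6 and 232 in buffalo against 15.7 to 28.4 in cattle. A further one lay lower in buffalo, at 121 to 148 against 211 to 330. TTR and SERPINA1 were too dim to test, at 67.2 to 77.7 and 74.1 to 92.5 in buffalo.

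LCAT was as high without buffalo 3. Buffalo minus cattle was then 3.82 (SE 0.16) on S1_at and 3.81 (SE 0.14) on S1_a_at. For AGT, which was highest on buffalo 3, it was 2.23 (SE 0.17). The part of liver transcripts in the LCAT and AGT differences was not tested.

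As AGT is a serpin by sequence, the other serpins were read beside it. Of 20 serpin genes with a probe set 11 were tested, and in buffalo 2 rose and 5 fell, with a median of -0.30, where 23% of all probe sets rose and 28.4% fell. With no brightness limit 5 of 20 rose and 5 fell, with a median of 0.06. SERPINE2, an inhibitor of thrombin on the cell surface, fell by 1.90 (SE 0.25, limma adjusted p = 3.88e-05), SERPINF1, also called PEDF, by 1.69 (SE 0.23, adjusted p = 5.16e-05) and SERPINB6 by 0.97 (SE 0.17, adjusted p = 0.000328). SERPINA3-7 rose by 0.36 (SE 0.11, adjusted p = 0.0134). In yak 5 of the 11 fell, where 15.9% of all probe sets did, and with castrated males and females alone as the reference 2 fell. Among the cattle, SERPINF1 fell in females (-2.62, SE 0.25, adjusted p = 0.00156) and in castrated males (-2.09, SE 0.25, adjusted p = 0.00757) relative to intact males, while AGT was not called in either.

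Adipocyte markers, of 1 of the tissues that also express AGT, had a lower summed intensity in both species than on every cattle array. The 15 adipocyte markers with a probe set (12 tested) summed to 4154 to 5238 in buffalo and 5050 to 5329 in yak, below the 8784 to 13536 of the cattle arrays. A large part of this gap was GPD1, the brightest of them, which averaged 1714 in buffalo, 2252 in yak and 5092 in cattle. PPARG, LIPE, DGAT2 and ADRB3 were not called in buffalo. In buffalo 6 of the 12 fell and 1 rose, against 28.4% and 23% of all probe sets. CFD, or adipsin, fell by 2.14 (SE 0.18, limma adjusted p = 6.29e-07) and ADIPOQ, or adiponectin, by 1.93 (SE 0.47, adjusted p = 0.00383). LEP, or leptin, rose by 1.06 (SE 0.13, adjusted p = 2.25e-05). The probe sets of FABP4, a fatty acid carrier, disagreed. The brightest was not called (-0.94, adjusted p = 0.216), and the other read 586 to 1240 in buffalo against 30.2 to 188 in cattle. Fibroblast markers, all 9 of which had a tested probe set, summed to 4065 to 5153 in buffalo, 5583 to 7306 in yak and 7658 to 29018 in cattle. Nerve and glia markers (5 of 8 with a probe set) summed to 3238 to 3755 in buffalo, 2066 to 2825 in yak and 1445 to 2825 in cattle. Most of this sum was S100B, which averaged 3178 in buffalo, 2240 in yak and 1556 in cattle. GFAP rose in buffalo in a call that ended in 7 alternatives. AQP4, on its brightest probe set, and NCAM1 were not called there. The actin ratio was 1.42 to 1.73 in buffalo and overlapped that of the intact males (up to 1.48). It lay above that of all castrated males (up to 1.27) and females (up to 1.33). For the GAPDH control the buffalo ratio was 1.215 to 1.504, and its upper end was above every other group. That range overlapped the intact males (up to 1.34) and yak (up to 1.26). It lay above the castrated males (up to 1.19) and females (up to 1.20). The part of these in the LCAT and AGT differences was not tested.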

How the data were processed

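Total RNA was extracted with Trizol, labelled with biotin and hybridised to Affymetrix bovine arrays, 1 per animal, per the labels' protocols. The authors deposited 1 intensity per probe set and array on a linear scale. The sources used here do not give how probe signals were summarised, corrected and scaled, and detection calls were not used here.

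From the deposited intensities, log2(intensity + 16) was computed with no further normalisation. Of 24128 probe sets 112 controls were set aside, and 9607 whose mean did not exceed the 40th percentile were not tested, which left 14409. Symbols came from the platform annotation. With 1 symbol there were 13292 probe sets, with several 86, and 10638 were unlisted. Of the first, 13263 were found in the RefSeq gene table by Entrez identifier. Linear models were fitted with limma 3.58.1 in R 4.3.3 (empirical Bayes with a trend, two-sided). The cattle contrasts used the 9 cattle arrays and the species contrasts all 15, with cattle as the mean of 3 group means. Replicates are called biological in the labels. With arrays there is no read depth, and their number limits the precision. The fit was tested on simulated data.

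The genes described and the gene lists were chosen with earlier results of these data known. Named are all LCAT and AGT probe sets, fixed pathway genes, and from each list at most 4 called genes per contrast, taken by p. Also named are the 5 most correlated genes, and the 2 nearest genes on either side where the gene order held them. A few further members whose calls were lost are named too. Alternatives were other added constants (1 and 64), no filter, a 60th percentile filter, quantile normalisation, no variance trend, the replicate number as a block, fewer arrays in the fit, a narrower cattle reference and leaving out each array.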

Additional observations from a re-analysis of the deposited data

How the results depend on the processing

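The called rise of LCAT in yak on S1_at kept its direction and call in every alternative run, and the described buffalo values kept their direction. Buffalo minus cattle on the brightest LCAT probe set was 3.37 with 64 added and 4.06 after quantile normalisation, and buffalo minus yak 2.37 after the latter. For AGT, buffalo minus cattle was 2.65 after quantile normalisation, and buffalo minus yak 2.65 with 64 added and 3.14 after quantile normalisation. The AGT fall in yak was -0.63 to -0.50 on leaving out single arrays, with adjusted p up to 0.0694. For LCAT in females against intact males the range was -0.79 to -0.53 on S1_at. Females against castrated males ranged from -0.25 to 0.023 on S1_a_at, above 0 without castrated male 2, and from -0.00704 to 0.12 on A1_at, below 0 without female 1. The cause of these moves was not tested.

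Counts of called probe sets moved more. Leaving out single arrays gave 41 to 987 calls for castrated against intact males (211 with all arrays), 55 to 2187 for females against intact males (792), 0 to 4 for females against castrated males (3), 50 to 1166 for any difference among cattle (283) and 2267 to 4626 for yak against cattle (4196). The highest cattle counts came without intact male 3. Fitting only the groups compared gave 37, 110 and 9 calls in the first 3 of these. For females against castrated males it was 0 with 1 added and 1 with the stricter filter. Buffalo against cattle gave 11929 calls without a filter, where more probe sets were tested, against 7400.

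Replicate numbers did not pair the samples. The deviations of same-numbered arrays had a median correlation of 0.00105 (-0.326 to 0.145 over 30 pairs, 6 of them over 0.1). With the replicate number as a block the counts were 143, 642 and 3 among cattle groups, 3970 for yak and 7204 for buffalo against cattle, and LCAT in females on S1_a_at was at an adjusted p of 0.0529.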
